A study of Homo sapiens with 32 samples.

Results

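The kinases and SPT factors that carry RNA polymerase II into productive elongation were followed as knockouts in a pooled CRISPR screen sorted by KinprolaPKA labeling. The set holds 10 of the 18638 genes of the library that have an Ensembl identifier. These are the kinase module of TFIIH (*CDK7*, *CCNH*, *MNAT1*), P-TEFb (*CDK9*, *CCNT1*), cyclin K and its kinases (*CCNK*, *CDK12*, *CDK13*), and *SUPT5H* and *SUPT6H*. Each gene had 4 sgRNAs, which makes 40 of 74987 sgRNAs in the deposited table. The genes were chosen by these roles with earlier results of the same libraries known. Their values are therefore a description, and no p-value is given for any of the 10.

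RKO is an established human colon carcinoma line. All cells, whichever group they ended in, carried lentiviral transgenes for Cas9 and for KinprolaPKA, a recorder that is labeled by the dye CPY-CA when protein kinase A (PKA) is active and that contains EGFP, and received the sgRNAs of the HD CRISPR sublibrary A. The ratio of CPY-CA to EGFP divided the labeled cells into a high, a medium and a low population, with nominal shares of 25%, 50% and 25%. The medium one is called basal in the labels, and the library of day 0 (T0) is the labels' control. The 2 screens are labelled replicates 2 and 3, with 1 library of each kind per screen, and the paper describes them as independent. The libraries count sgRNA cassettes in genomic DNA, so the share of cells that each sgRNA edited is unknown and the cell line could not be checked against expression markers.

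As background, a polymerase that has left the promoter soon pauses, held by the factors DSIF and NELF. CDK7, within the general factor TFIIH, phosphorylates the C-terminal domain of the polymerase at initiation and also activates other CDKs by phosphorylation. CDK9 with cyclin T1 forms P-TEFb, which releases the pause. CDK12 and CDK13, both paired with cyclin K, phosphorylate the same domain further into the gene, and the SPT factors travel with the polymerase.

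The 8 libraries had 23369720 to 31777138 reads, at medians of 260 to 356 reads per sgRNA. Lanes of the same library, 4 each, agreed within counting error (their chi-square was 1.02 to 1.03 times its degrees of freedom, and 5.77 to 7.34 times between screens), so they were summed and each library counts as 1 sample. Reads below are scaled to the mean library total and summed over the 4 sgRNAs of a gene. A log2 fold change of a gene is the mean over its sgRNAs of the difference of log2(scaled reads + 1) within a screen, averaged over the 2 screens. The SE printed with it is limma's. It rests mostly on a spread pooled over genes and can be smaller than the 2 screens alone would give. Across all genes, limma with Benjamini-Hochberg adjustment over 18659 entries called 979 genes higher and 508 lower in high versus low. Centring on the 278 no-target sgRNAs, whose own mean log2 fold change was −0.11, gave 1243 higher and 278 lower, so the split by direction depends on the scaling.

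Knockouts of the initiation and pause-release kinases and of the SPT factors were more frequent in high than in low cells, and knockouts of cyclin K and of *CDK13* less frequent. At an adjusted p under 0.05 in limma, 7 of the 10 genes were called higher and 2 lower in high versus low, and *CDK12* was not called. Of all genes, 7.98% were called, 5.25% as higher and 2.73% as lower. Since the genes were chosen with this contrast known, nothing is read from their counts. The median log2 fold change of the 10 was 0.89, against −0.01 over all genes. Without the low library of replicate 3, limma on the remaining sorted libraries no longer called *CCNH* (0.81), *MNAT1* (0.58), *CCNT1* (0.91) and *CDK13* (−0.55). That fit also called fewer of all genes.

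**Figure D1:**
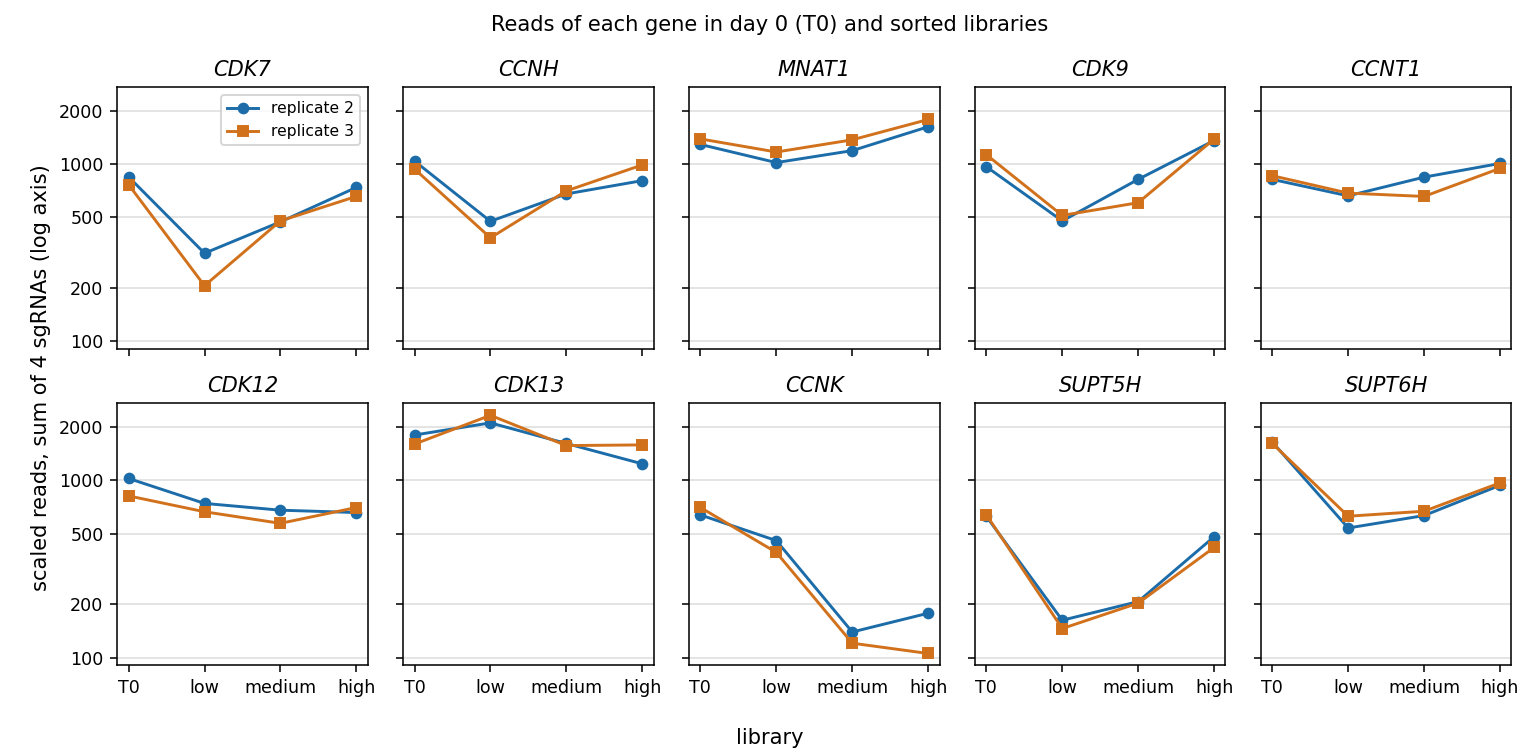
Scaled reads summed over the 4 sgRNAs of each gene (log axis) in the T0, low, medium and high libraries, with 1 line per screen. *CCNK* has 178 and 105 reads in high against 456 and 391 in low, and *SUPT5H* has 479 and 417 in high against 162 and 146 in low.

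*CCNK* encodes cyclin K, the partner that CDK12 and CDK13 need for activity. The high libraries of replicates 2 and 3 held 178 and 105 scaled reads of *CCNK*, against 456 and 391 in the low libraries. The 2 high libraries lay below both low libraries. With only 2 libraries per population such a separation can arise by chance. How often it occurs over all genes was not counted, here or for the genes below. The log2 fold change was −1.94 (SE 0.11, n = 2 screens), a geometric mean fold of 0.260 over sgRNAs and screens that the rarest sgRNA lowers, and stood at rank 18 of 18638 from the lowest. The medium libraries had 139 and 121 reads, about as few as the high ones, and only the low libraries stood above the rest of the sort. The low versus medium log2 fold change was 1.65 (SE 0.12), which limma called, and the high versus medium one was −0.30 (SE 0.11), which it did not call. The sum over the sgRNAs hides one that was rare from the start, with 4.36 and 26.6 scaled reads at T0. This sgRNA, numbered 1 here, had 0 and 2.37 scaled reads in high against 16.0 and 24.1 in low, and its fold depends on the added read. The other 3 sgRNAs had mean log2 fold changes of −1.92, −0.53 and −1.83, and without sgRNA 1, which averaged under 50 reads at T0, the gene stood at −1.42 in high versus low and at 0.17 in high versus medium.

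*CDK12* and *CDK13*, the kinases that share cyclin K, did not look alike. *CDK13* had 1235 and 1579 scaled reads in high against 2101 and 2317 in low, with no overlap between the populations. Its log2 fold change was −0.54 (SE 0.11, n = 2 screens), a smaller difference in the direction of *CCNK*. Its sgRNAs 1 to 3 lay close together at −0.79, −0.79 and −0.71, while sgRNA 4 had −0.11 in replicate 2 and 0.36 in replicate 3. limma did not call *CDK13* when centred on the no-target sgRNAs (−0.43), nor without the low or the high library of replicate 2 (−0.54 and −0.38) or the low library of replicate 3 (−0.55), nor without the replicate block (−0.54). *CDK12* had 656 and 700 reads in high against 739 and 663 in low, and these populations overlapped. Its log2 fold change was −0.02 (SE 0.12), the value was −0.18 in replicate 2 and 0.14 in replicate 3, and its 4 sgRNAs had means between −0.22 and 0.16. The 4 sgRNAs of *CCNK* all lay below the lowest of *CDK12*, whereas those of *CCNK* and *CDK13* overlapped. Differences between these genes were not tested. In GRCh38 (GENCODE release 44) these protein-coding genes lie as follows: *CCNK* at chr14:99481169-99535044, *CDK12* at chr17:39461486-39567559 and *CDK13* at chr7:39950121-40099580. The exons that the sgRNAs cut are not given in the sources used here.

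*CDK9* and *CCNT1*, the kinase and the cyclin of P-TEFb, were both more frequent in the high population, *CDK9* by the larger difference. *CDK9* had 1355 and 1379 scaled reads in high against 477 and 513 in low. Its mean difference on the log2 scale was 1.54 (SE 0.11, n = 2 screens), a geometric mean fold of 2.91 over sgRNAs and screens. All 4 of its sgRNAs were higher in high in both screens, most strongly sgRNA 2 at 2.85 and 2.06. The P-TEFb genes are *CDK9* at chr9:127785679-127790792 and *CCNT1* at chr12:48688458-48716998. *CCNT1* had 1007 and 945 reads in high against 661 and 685 in low. The populations did not overlap, and the log2 fold change was 0.71 (SE 0.11). It rests on uneven sgRNAs: sgRNA 4 had 0.17 in replicate 2 and 1.74 in replicate 3, and sgRNA 1 averaged 24.3 reads per library. limma did not call *CCNT1* without the low or the high library of replicate 2 (0.50 and 0.81) or the low or the high library of replicate 3 (0.91 and 0.60). It was also not called without the replicate block (0.71).

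The 3 subunits of the TFIIH kinase module went the same way with different sizes. *CDK7*, the kinase, had 737 and 657 scaled reads in high against 314 and 206 in low, which gives 1.31 on the log2 scale (SE 0.13, n = 2 screens). *CCNH*, its cyclin, had 805 and 987 reads in high against 475 and 384 in low, a log2 fold change of 1.08 (SE 0.15). The 2 screens lay apart for *CCNH*, at 0.74 in replicate 2 and 1.43 in replicate 3. *MNAT1*, the assembly factor that stabilizes the pair, had 1620 and 1780 reads in high against 1018 and 1167 in low, a log2 fold change of 0.66 (SE 0.11). The genes are *CDK7* at chr5:69234795-69277430, *CCNH* at chr5:87318416-87412930 and *MNAT1* at chr14:60734742-60969965. For each of the 3 both high libraries exceeded both low libraries, a separation that was not counted over all genes. All 12 sgRNAs of the module were higher in high in both screens, with means from 1.03 to 1.64 for *CDK7*, 0.90 to 1.20 for *CCNH* and 0.37 to 0.85 for *MNAT1*. The sgRNAs of *MNAT1* thus all lay below those of the other subunits. Without the low library of replicate 3, *CCNH* (0.81) and *MNAT1* (0.58) were not called.

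*SUPT5H*, the large subunit of DSIF, had the largest difference toward high among the 10 genes. It had 479 and 417 scaled reads in high against 162 and 146 in low. The log2 fold change was 1.73 (SE 0.11, n = 2 screens), a geometric mean fold of 3.32 over sgRNAs and screens, at rank 132 from the highest. Its 4 sgRNAs ranged from 1.09 to 2.92, with sgRNA 4 at 2.77 and 3.08 in the 2 screens. *SUPT6H*, a histone chaperone that moves with the polymerase, had 934 and 965 reads in high against 537 and 626 in low. Its log2 fold change was 1.12 (SE 0.11), with sgRNAs from 0.40 to 1.76. The genes are *SUPT5H* at chr19:39436156-39476670 and *SUPT6H* at chr17:28662198-28702679. Neither gene lost its call in any of the alternatives tried for high versus low.

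**Figure D2:**
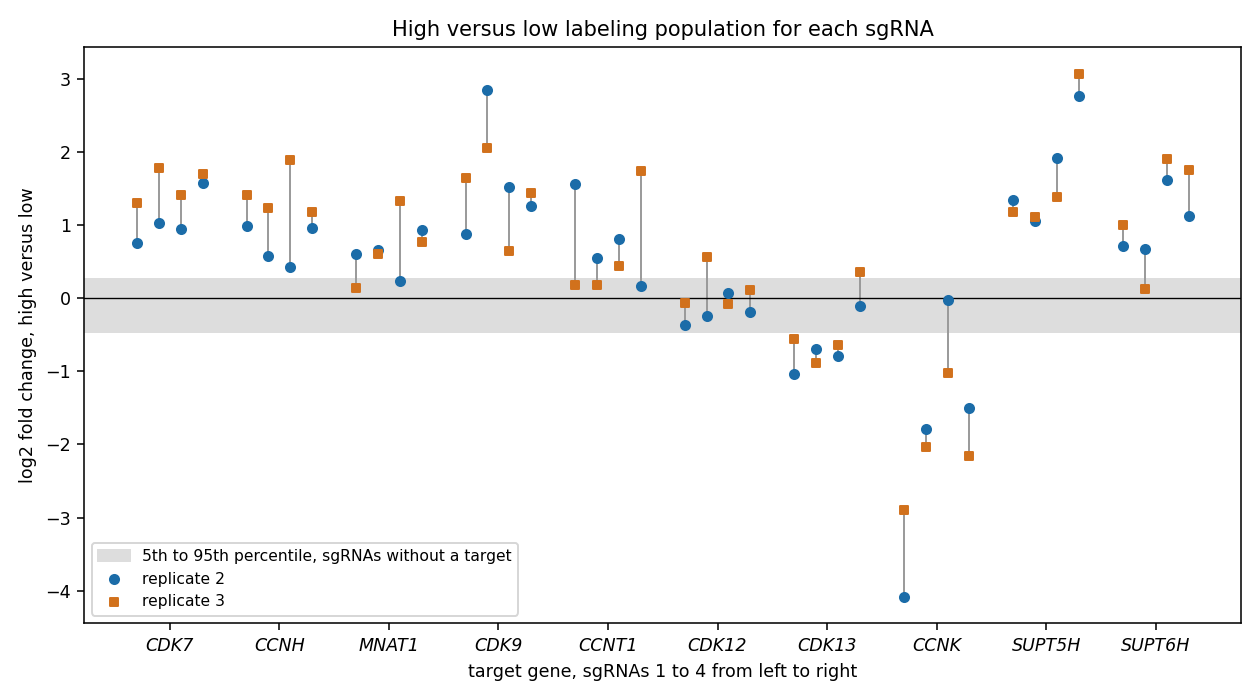
Log2 fold change of high versus low for each of the 40 sgRNAs, with a circle for replicate 2 and a square for replicate 3 joined by a line. The grey band spans the 5th to 95th percentile (−0.47 to 0.26) of the mean over both screens of 278 no-target sgRNAs, and the 4 sgRNAs of *CDK12* have means from −0.22 to 0.16, inside it. The same percentiles of 50 control sgRNAs against AAVS1 lie further apart (−0.9987 to 1.103).

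The gene values above are means over these same sgRNAs, so the single values show their spread and are not separate support. In high versus low, 28 of the 40 sgRNAs were higher in both screens, 8 were lower in both and 4 had opposite signs. Of all 74552 sgRNAs against genes, 27.6% were higher and 29.0% lower in both screens. The 4 with opposite signs were 3 sgRNAs of *CDK12* and sgRNA 4 of *CDK13*. Of the 40 means, 28 lay above the 95th percentile of the no-target sgRNAs, 7 below the 5th and 5 in between. The 50 control sgRNAs against AAVS1, which do have a target, spread more widely. Their 5th and 95th percentiles were −0.9987 and 1.103. All sgRNA means of *MNAT1*, *CCNT1*, *CDK12* and *CDK13* lay inside that range, and each remaining gene had some outside it. The 28 and 7 thus hold against the no-target sgRNAs only. edgeR's quasi-likelihood test with the screen as a block called 15 of the 40 higher and 5 lower, where 4.5% of all sgRNAs tested were called, 2.95% higher and 1.55% lower. The 15 included all 4 sgRNAs of *CCNH* and 3 of the 4 of *CDK9*, and the 5 were 3 of *CDK13* and 2 of *CCNK*. An sgRNA with few reads could miss the call at a larger difference. For example, sgRNA 3 of *CDK7* had 0.95 and 1.42 in the 2 screens at a mean of 33.1 reads per library and was not called, while sgRNA 2 of *MNAT1* had 0.65 and 0.60 at 711 reads and was called. DESeq2 called 11 higher and 5 lower, where it called 1556 higher and 632 lower of 74508 sgRNAs tested. edgeR had called 2192 and 1154 of 74312. Without the low or the high library of replicate 3, edgeR called fewer of the 40, and fewer of all sgRNAs tested as well.

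The spread over the gates restates these reads as shares of cells. Weighting the scaled reads by the nominal gate sizes (0.25, 0.5 and 0.25) rebuilds the pool that entered the sorter, and the median gene had 24.85% of it in high and 24.98% in low in replicate 2. The gates were set at around these sizes, so the shares are approximate. *CCNK* had 19.5% and 14.3% of its rebuilt pool in the high gate and 49.97% and 53.03% in the low gate. *SUPT5H* had 45.4% and 43.1% in high and 15.4% and 15.1% in low, and *CDK9* had 39.1% and 44.5% in high and 13.8% and 16.5% in low. *CDK12* was near the nominal sizes, at 23.9% and 28.0% in high and 26.9% and 26.5% in low. The remaining genes leaned as their reads did: *CDK13* had 18.9% and 22.5% in high and 32.1% and 33.0% in low, while *MNAT1* had 32.3% and 31.3% in high and 20.3% and 20.5% in low. Over all genes, the 5th and 95th percentiles of the low share were 21.1% and 28.7% in replicate 2.

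**Figure D3:**
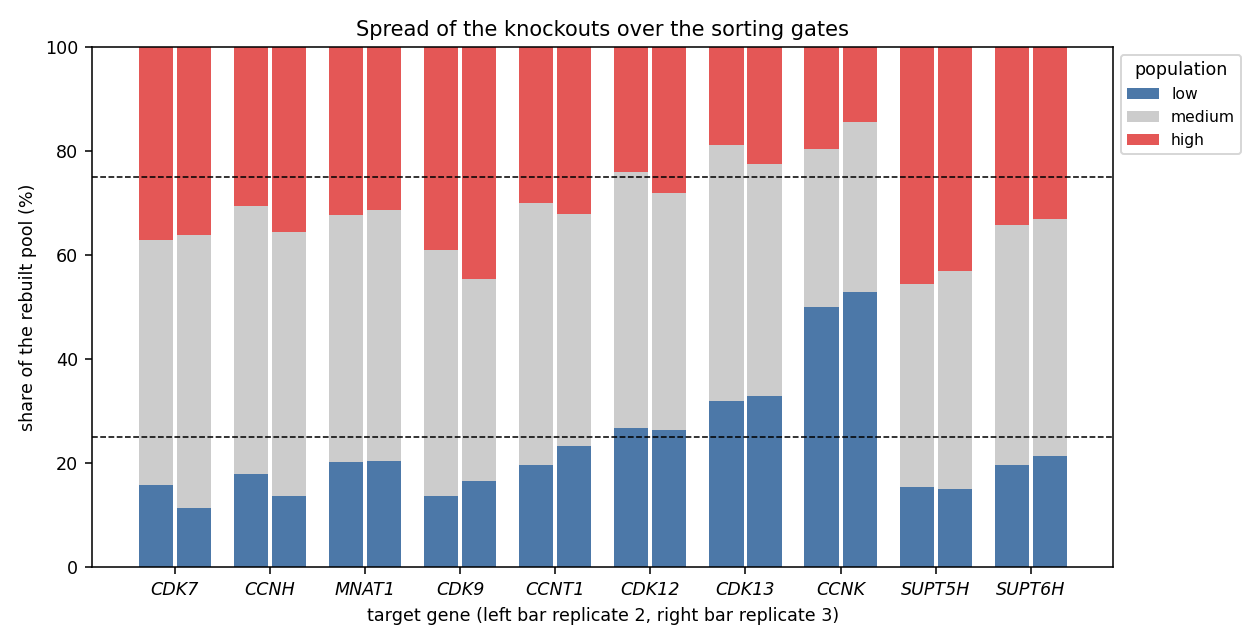
Share of each knockout's rebuilt pool (%) in the low, medium and high gates, stacked in that order, with the left bar for replicate 2 and the right bar for replicate 3. Dashed lines mark the nominal gate borders at 25% and 75%, and the low share of *CCNK* reaches 49.97% and 53.03%.

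Against the medium population fewer of the genes were called, and for several the call depended on the setting. In high versus medium, limma called 3 of the 10 higher and none lower, where 1.79% of all genes were called and 1.7% were called higher. These were *SUPT5H* at 1.55 (SE 0.18, n = 2 screens), *CDK9* at 1.08 (SE 0.11) and *CDK7* at 0.70 (SE 0.09). The high libraries of *SUPT5H* held 479 and 417 scaled reads, against 207 and 203 in the medium libraries. Its log2 fold change was 1.18 in replicate 2 and 1.92 in replicate 3. In replicate 3 its sgRNA 3 had 0 scaled reads in medium against 27.3 in high, so that sgRNA's fold depends on the added read and raises the gene's mean. In low versus medium, limma called *CCNK* higher, at 1.65, and *CCNH* lower, at −0.69 (SE 0.13), where 2.71% of all genes were called, 1.18% higher and 1.54% lower. *CCNH* had 475 and 384 reads in low against 678 and 705 in medium. Whether the sides differ for a gene was not tested. These calls are less stable than those of high versus low. *CDK7* was not called in high versus medium without the medium library of replicate 2 (0.56), the high library of replicate 2 (0.81) or the high library of replicate 3 (0.59), nor with sgRNAs of at least 50 reads at T0 (0.42) or without the replicate block (0.70). *CCNH* was not called in low versus medium without the low library of replicate 2 (−0.97) or replicate 3 (−0.41), or the medium library of replicate 2 (−0.72) or replicate 3 (−0.65), nor without the replicate block (−0.69). Calls were also gained. *CDK7*, at −0.62 in low versus medium, was called there with a pseudocount of 5 (−0.60), with sgRNAs of at least 50 reads at T0 (−0.94), with the median over sgRNAs (−0.75) and without the medium library of replicate 2 (−0.75). *SUPT6H*, at 0.63 in high versus medium, was called there under 6 alternatives (0.60 to 0.81), among them leaving out the medium library of replicate 3 (0.81), and in low versus medium without the medium library of replicate 2 (−0.68). Without that library *CCNT1*, at 0.43 in high versus medium, was called there (0.74), and *CDK13*, at 0.38 in low versus medium, was called with the median (0.46). When centred on the no-target sgRNAs, 7 of the 10 were called in high versus medium.

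The same knockouts differed in how many cells were left since T0, in an order other than that of the labeling. Comparing the rebuilt pool with T0, limma called 6 of the 10 lower and none higher, where 10.9% of all genes were called, 2.54% higher and 8.35% lower. *SUPT5H* had 264 and 242 scaled reads in the pool against 624 and 638 at T0, which gives −1.44 on the log2 scale (SE 0.11, n = 2 screens). *CCNK* had 228 and 184 reads in the pool against 636 and 701 at T0 (−1.32, SE 0.12), and *SUPT6H* had 683 and 731 against 1639 and 1609 (−1.26, SE 0.09). *CCNK* and the SPT factors thus had like values against T0 and opposite signs in high versus low. The 50 control sgRNAs against AAVS1 spread widely against T0, with 5th and 95th percentiles of −2.614 and 0.5121 and a median of 0.003. The values of the 6 called genes, each a mean over sgRNAs, all lay inside that range of single sgRNAs. For the 278 no-target sgRNAs these percentiles were −0.0767 and 0.5685, and the 6 values lay below both. No gene, here or below, was tested against the AAVS1 sgRNAs.

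*CDK7* (−0.65, SE 0.09), *CDK12* (−0.59, SE 0.10) and *CCNH* (−0.55, SE 0.10, n = 2 screens each) made up the rest of the 6. *CDK12* had 687 and 626 scaled reads in the pool against 1022 and 815 at T0, so its reads were fewer than at T0 while its spread over the gates was even. *MNAT1* (0.04, SE 0.09) and *CDK13* (−0.04, SE 0.10) were near 0. *CDK9* had −0.06 in replicate 2 and −0.60 in replicate 3, a mean of −0.33 (SE 0.11) that was not called here. It was called with a pseudocount of 5 (−0.32), with sgRNAs of at least 50 reads at T0 (−0.33), with weighted log2 values (−0.48), in limma on the libraries (−0.48) and when centred on the no-target sgRNAs (−0.53), which moved the weighted log2 change of every gene by −0.22. *CCNT1* had opposite signs, 0.37 and −0.50, and its sgRNA 1, with 10.5 and 37.9 reads at T0, had 1.55 and −1.15. Without the T0 library of replicate 2, *CCNH* (−0.58) and *CDK12* (−0.51) were not called and *CDK9* (−0.73) was. *CCNH* (−0.66) was also not called without the T0 library of replicate 3, and *CDK9* (−0.60) was called without the medium library of replicate 2. Of the 1556 genes called lower since T0, 38.8% were called higher in high versus low and 12.1% lower.

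**Figure D4:**
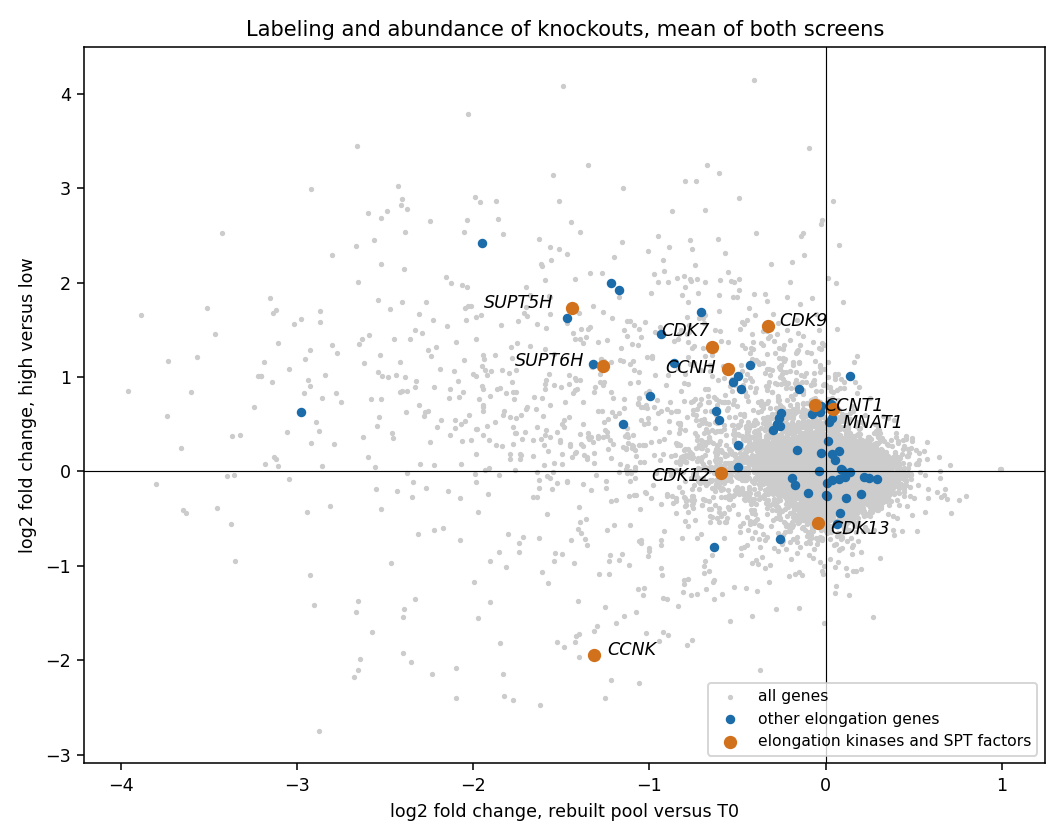
Log2 fold change of high versus low (vertical) against that of the rebuilt pool versus T0 (horizontal), mean of both screens, for all genes (grey), the other elongation genes (blue) and the 10 genes described (orange, named). *CCNK* (−1.32, −1.94) and *SUPT5H* (−1.44, 1.73) lie at like positions on the horizontal axis and on opposite sides of the vertical one.

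The genes whose libraries looked most like each of the 10 were found by Euclidean distance over 6 values, the log2 ratios of the 3 sorted libraries to T0 in each screen. The distances are a description over libraries that share T0. The gene nearest to *CCNK* outside the set was *NIP7* (distance 0.65, where the median gene was 4.40 away), a ribosome assembly factor, with −1.64 in high versus low. The nearest to *SUPT5H* was *MEPCE* (0.53, median 4.67), which caps the small RNA that holds P-TEFb inactive. *CDK12* was nearest to *CNOT1* (0.16, median 1.59), the scaffold of the CCR4-NOT deadenylase, and *CDK13* to *NIBAN2* (0.14, median 0.88). *CDK9* was nearest to *PCID2* (0.33, median 2.11), *CDK7* to the TFIID subunit *TAF6* (0.28, median 2.39) and *CCNH* to *SUDS3* (0.43, median 2.07). *MNAT1* was nearest to the SAGA subunit *SUPT7L* (0.19, median 0.85), *CCNT1* to the kinase gene *CSK* (0.49, median 1.39) and *SUPT6H* to *ATP6V0E1* (0.40, median 3.57). The medians differ, so the distances of different genes are not on 1 scale. *CDK7* and *CCNH* were each among the 100 genes nearest to the other, and no other pair of the 10 was.

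Other genes of elongation were taken as 9 lists of 60 genes in all, chosen by role with earlier results of these data known. Their counts are therefore a description too, and the adjusted p-values given for single genes come from the limma fit over all 18659 entries. In high versus low, limma called 29 of the 60 higher and 4 lower, where 5.25% and 2.73% of all genes were called, and their median log2 fold change was 0.38 against −0.01 over all genes. Without the low library of replicate 2 or that of replicate 3, 13 of the 60 were called in either case. The partner of *SUPT5H* in DSIF, *SUPT4H1*, rose with it, at 1.46 (SE 0.11, n = 2 screens, adjusted p = 3.18e-06, limma), with *NELFA* of NELF at 0.70 (SE 0.11, adjusted p = 0.00121, limma). The other 3 NELF subunits were not called, so 2 of these 5 genes rose.

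All 6 genes of the PAF1 complex, which binds the elongating polymerase, rose in high versus low. Their log2 fold changes were 0.48 to 1.92, led by *RTF1* at 1.92 (SE 0.11, adjusted p = 3.96e-07), *PAF1* at 1.14 (SE 0.12, adjusted p = 4.2e-05) and *SKIC8* at 1.01 (SE 0.12, adjusted p = 0.000116, all limma, n = 2 screens). These 3 kept their calls with any 1 of the 4 high and low libraries left out, and the complex then had 3 calls in place of 6. Against T0, 5 of the 6, all but *LEO1*, were called lower in the pool, with *PAF1* at −1.32, *RTF1* at −1.17 and *CTR9* at −1.15. Of all genes, 8.35% were called lower there. Of the 7 genes of the TFIIH core, to which the CDK7 module binds, 6 rose by 0.50 to 0.87, and none was called against T0 (4 were called lower there when centred on the no-target sgRNAs). Without the low library of either replicate, none of the 7 was called. The largest were *ERCC3* (0.87), *ERCC2* (0.63) and *GTF2H3* (0.62), the first 2 being its helicases. Their values with a low library left out were 0.98, 0.71 and 0.71 for replicate 2 and 0.76, 0.55 and 0.52 for replicate 3, and without the high library of replicate 3 *ERCC2* (0.56) and *GTF2H3* (0.50) were not called either.

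The regulators of P-TEFb did not move together. *HEXIM1*, which inhibits P-TEFb, fell by 0.80 on the log2 scale (SE 0.11, n = 2 screens, adjusted p = 0.000371, limma), the opposite direction to *CDK9*. *MEPCE*, of the same inhibitory particle, rose by 1.62 (SE 0.13, adjusted p = 7.07e-06, limma). The particle's *LARP7* had −0.15 and the second cyclin T gene, *CCNT2*, −0.12, and neither was called. In the super elongation complex, which carries P-TEFb, 2 of 9 genes rose. *ELL* had 2.00 (SE 0.11, adjusted p = 2.99e-07, limma) and *MLLT1* 0.57, which was not called without the low library of replicate 2 (0.67), the low library of replicate 3 (0.47) or the high library of replicate 3 (0.52).

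Among 6 genes grouped as SPT6 partners and other elongation factors, *ELOF1* (0.71) and *IWS1* (0.57) rose and *SETD2*, a histone methyltransferase that follows the polymerase, fell by 0.71 on the log2 scale (SE 0.11, n = 2 screens, adjusted p = 0.00123, limma). *SETD2* was not called with the low library left out in replicate 2 (−0.67) or replicate 3 (−0.76), *ELOF1* not without the low library of replicate 2 (0.68), and *IWS1* not without the low or the high library of replicate 2 (0.64 and 0.51) or of replicate 3 (0.49 and 0.62). *NELFA*, too, was not called with either low library left out (0.69 for replicate 2, 0.71 for replicate 3). Of 8 genes for phosphatases of the polymerase's C-terminal domain and their partners, which reverse the work of these kinases, 4 rose and 1 fell. *RPAP2* rose by 2.42 (SE 0.17, adjusted p = 1.99e-06), *CTDP1* by 1.69 (SE 0.11, adjusted p = 1.06e-06) and *PPP1R10* by 0.94 (SE 0.12, adjusted p = 0.000188, all limma). The one that fell, *CTDSP1*, had −0.55 (SE 0.11, adjusted p = 0.00608, limma), and leaving out any of the 4 high and low libraries ended its call (−0.58 to −0.53).

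Of 9 other CDKs and cyclins linked to transcription, 3 rose and 1 fell. *CDK11A* had 1.15 and *CDK11B* 0.87, but these genes are near-identical copies whose sgRNAs may cut both, and *CDK11B* was not called with either low library left out (0.90 for replicate 2, 0.84 for replicate 3). *CCNC*, the cyclin of the Mediator kinase, had 1.01 (SE 0.11, n = 2 screens, adjusted p = 5.8e-05, limma). *CCNQ*, the cyclin of CDK10, was the one that fell, at −0.44 (SE 0.12, adjusted p = 0.0477, limma). It was not called with any 1 of the 4 high and low libraries left out (−0.63 to −0.26), nor when centred on the no-target sgRNAs (−0.33). The call of *CCNQ* also ended with TMM factors (−0.435), median-of-ratios size factors (−0.436) or the median over sgRNAs (−0.34). The same held without the replicate block and in limma on the libraries (−0.441 each). Of the 4 cell cycle CDKs that CDK7 activates, all were called lower in the pool versus T0, where 8.35% of all genes were. They ranged from −2.98 for *CDK1* to −0.43 for *CDK2*, and 2 rose in high versus low. Without the T0 library of replicate 2, that of replicate 3 or the medium library of replicate 2, 2, 1 and 2 of the 4 were called against T0. *CDK2* had 1.13 and was not called without the low library of replicate 3 (0.75). *CDK1* had 0.63, and leaving out any of the 4 high and low libraries ended its call (0.22 to 1.05), as did limma on the libraries in place of within-screen differences.

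**Figure D5:**
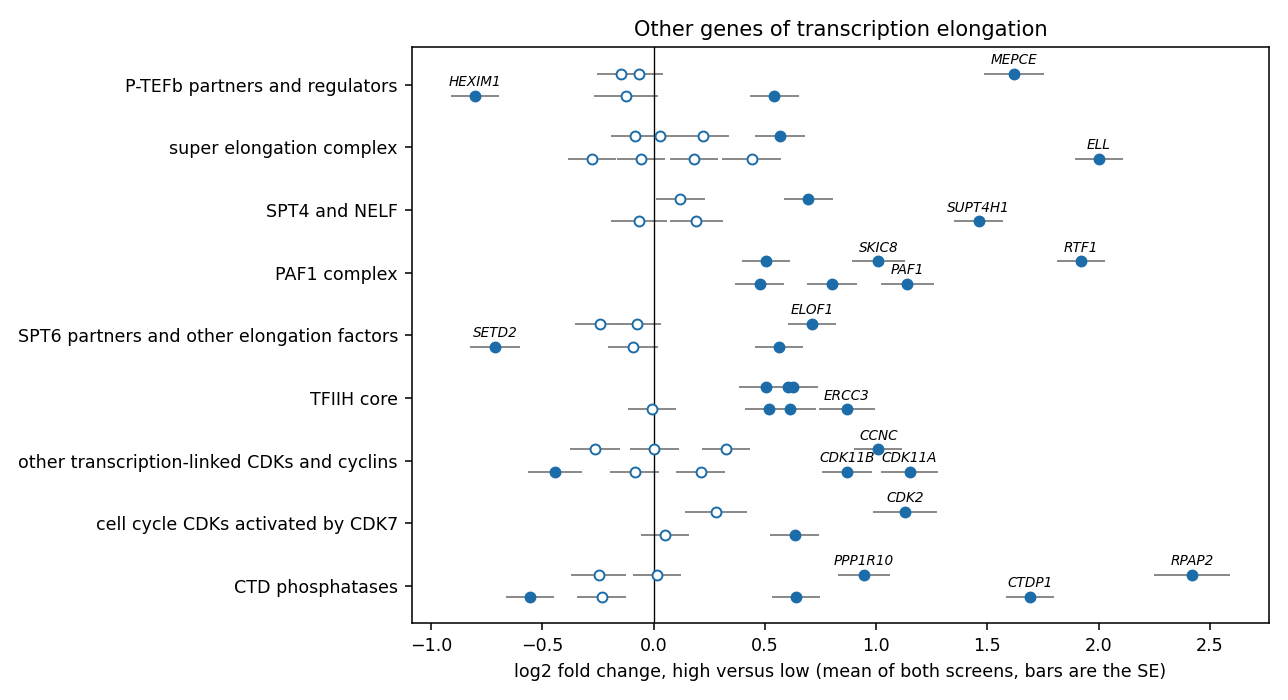
Log2 fold change of high versus low (mean of both screens, bars are the SE from limma) of 60 other genes of elongation in 9 lists. Filled points passed an adjusted p under 0.05, 29 above 0 and 4 below, and the PAF1 complex is the list whose 6 genes all lie above 0 and pass.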

How the data were processed

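Genomic DNA of sorted RKO cells was amplified over the sgRNA cassette and sequenced, and the authors counted reads per sgRNA with MAGeCK. The deposited values are raw counts per sgRNA, library and lane. No aligner or genome build is given in the sources used here. The sgRNA sequences are not printed, because the table gives sgRNAs by identifier. In 2 samples, 1 label named another population than the title, and the title was used. A further 4 columns could be tied to no sample and were not used.

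Lanes were summed to 8 libraries with Python 3.11.15. limma 3.58.1 (lmFit, eBayes, R 4.3.3) was run on the 2 within-screen log2 fold changes of each gene, following the study's methods, for the 3 pairs of sorted populations and for the rebuilt pool versus T0. The scaling, the pseudocount of 1 read and the T0 comparison are choices made here, and core-essential genes, which the study took out of its hits, were kept. With 2 screens, a p-value and an SE rest mostly on a spread pooled over genes (prior degrees of freedom 4.62 to 23.6). edgeR 4.0.16 (quasi-likelihood, TMM, filterByExpr, screen as a block) tested single sgRNAs on the counts of the 6 sorted libraries, with DESeq2 1.42.0 as an alternative. All 40 sgRNAs of the 10 genes passed the filter. Libraries with the same replicate number were treated as 1 screen, which the sources used here do not state outright. When each library was set against its population's mean, libraries of 1 screen correlated at 0.161 (high, medium), 0.123 (high, low) and 0.158 (medium, low). Both tests were tried on simulated counts.

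The 10 genes and the 9 lists were chosen with earlier results of these data known. All 10 genes are named; of each list, up to 3 genes with the largest absolute change past the threshold in high versus low and up to 3 in the pool versus T0 are named by rule, and *CCNT2*, *LARP7*, *LEO1*, *CCNQ*, *CTDSP1* and the genes named against medium were added after their values were seen. One gene that the rule names is not reported here. GENCODE release 44 named 18585 of 18638 identifiers. No molecular identifiers are described, so reads may not be separate molecules.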

Additional observations from a re-analysis of the deposited data

How the results depend on the processing

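For high versus low, the total counts of calls over all genes, over the 10 genes and over the 40 sgRNAs stayed within 1.5 times under every other scaling, pseudocount, filter and average tried, and no called value of the 10 changed sign. By direction, the genes called lower did not (278 when centred on the no-target sgRNAs, against 508). When centred on the no-target sgRNAs, which moved the log2 fold change of every gene by 0.11 in high versus low, 962 genes and 7 of the 10 were called in high versus medium, against 334 and 3, and 5510 genes in the pool versus T0, against 2029. With the median over sgRNAs, 824 genes and 4 of the 10 were called in low versus medium, against 506 and 2, and 673 genes in high versus medium. Without the replicate block, 258 genes and 1 of the 10 were called in low versus medium, 7 of the 10 in high versus low and 18 of the 40 sgRNAs, against 9 and 20. limma on the libraries with the replicate block called 1 of the 10 in low versus medium. Leaving out 1 library at a time gave 642 to 1487 genes, 5 to 9 of the 10, 12 to 21 of the 40 sgRNAs and 13 to 33 of the 60 other genes in high versus low. It gave 31 to 506 genes and 1 to 3 of the 10 in low versus medium, and 985 to 1504 genes and 5 to 7 of the 10 in the pool versus T0. The lowest gene counts of high versus low and low versus medium came without a low library, and those of the pool without a T0 library. These fits have fewer samples. The alternatives for the 60 other genes were chosen after seeing the data. Depth limits single sgRNAs: those of the 10 genes averaged 10.5 to 711 reads per library.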

Other observations

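The 60 other elongation genes were also counted in the remaining comparisons. In high versus medium, 12 of the 60 were called higher and none lower by limma, among them *ELL* at 1.57 and *MEPCE* at 1.47 on the log2 scale, where 1.7% of all genes were called higher. In low versus medium, where 1.18% of all genes were called higher and 1.54% lower, *HEXIM1* was called higher, at 0.61, and 5 genes were called lower. The 5 were *RPAP2* at −0.995, *RTF1* at −0.83, *SUPT4H1* at −0.77, *GTF2H1* at −0.66 and *CTDP1* at −0.51 (all 6 named after their values were seen). None of these 6 was called without the low library of replicate 2, where *HEXIM1* had 0.66 and *RTF1* −0.81, nor without that of replicate 3, where they had 0.56 and −0.85. In the pool versus T0, where 8.35% of all genes were called lower and 2.54% higher, 21 of the 60 were called lower, with *CDK1* at −2.98 and *RPAP2* at −1.95. Only *CDK19* was called higher there, at 0.29, and its call ended under other scalings (0.28 with TMM factors and 0.07 when centred on the no-target sgRNAs).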
